A study of Mus musculus with 12 samples.

Results

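Bleomycin-treated mouse lungs that carried much RNA of monocyte-derived macrophages were compared with bleomycin-treated lungs that carried little. The macrophage-rich lungs are the libraries Model 1, Model 3 and HBG 1, and the macrophage-poor lungs are Model 4, HBG 2 and HBG 4, so 6 of the 12 libraries of the study enter, 3 on each side. They were chosen by measured values, the levels of monocyte-derived macrophage genes in the same count table. Every difference between the 2 sets is therefore a description, given without a test. Model mice, male C57BL/6 mice aged 6 to 8 weeks, received bleomycin into the trachea at 5 mg/kg and distilled water by mouth. HBG mice received the same bleomycin and, as an herbal treatment, Huashibaidu granules at 7 g/kg. The 4 Control libraries came from mice given water without bleomycin. The same age range is given for the HBG and Control mice. The labels differ on when the granules were given: the design text has them start 1 week ahead of bleomycin and run to day 28, and the sample protocol has them start on day 7 and last 14 days. Nothing in the labels states that each library is from its own mouse. The p-values of the labelled comparisons therefore measure only the spread between libraries, which may be technical.

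Bleomycin breaks DNA strands and injures the alveolar epithelium and the capillary endothelium of the lung. Monocytes drawn from the blood by chemokines then become macrophages that express Spp1, Gpnmb and Trem2, digest debris in their lysosomes and lie beside fibroblasts that deposit collagen. Surfactant-producing type II cells pass through a transitional state marked by keratins, Cldn4 and Sprr1a on their way to flat type I cells, and the capillary bed, made of general capillary cells and large aerocytes, is lost and rebuilt. The response varies between animals and between parts of a lung.

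Totals were 19230806 to 22622406 estimated counts in the macrophage-rich libraries, 17979863 to 19746967 in the macrophage-poor ones and 18864759 to 27150787 in Control. Mitochondrially encoded genes took 4.57% to 5.73%, 3.85% to 6.62% and 4.67% to 6.12% of the counts. Model 2 and HBG 3 were left out of both sides because they stood apart in another way. Cdkn1a, the p53-induced inhibitor of the cell cycle, was at 174 and 73.5 CPM (counts relative to library size, scaled by TMM) in these libraries and at 477 to 751 CPM in the 6 libraries compared. Control 4 had the same low level, 55.4 CPM, against 508 to 615 CPM in the other Control libraries, and it shared more with the left-out libraries. Gdf15 was at 0.59 CPM in Control 4 and at 4.29 and 1.94 CPM in Model 2 and HBG 3, against 38.7 to 63.3 CPM in the other Control libraries, and Mki67 was at 29.4 CPM against 3.80 to 6.25 CPM. Nothing in the labels sets Control 4 apart, whether it belongs with its group was not tested, and each Control range given here includes it unless it is named apart. Counts against Control are given with and without it. Sftpc, the surfactant protein gene that defines type II cells, was at 7736 to 17549 CPM in the 6 libraries, so lung tissue was present in each. Heart muscle and airway markers varied among them and are described beside the results that they move with.

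Each gene list was given a score per library, the average of log2 CPM over its tested genes after subtracting the mean of the 12 libraries. The macrophage score that separates the sides was 1.20, 0.70 and 0.69 in Model 1, Model 3 and HBG 1. It was -0.57, -0.11 and -0.38 in Model 4, HBG 2 and HBG 4. Just inside the choice lie HBG 1 at 0.69 and HBG 2 at -0.11, and between them lie the left-out libraries Model 2 and HBG 3, at 0.29 and 0.27. The Control libraries were at -0.64 to -0.38, so Model 4 lay within the Control range, HBG 4 at its top and HBG 2 above it. In bulk tissue, fewer cells of a type and less RNA per cell cannot be told apart. Triplets of values on the macrophage-rich side are in the order Model 1, Model 3, HBG 1 and those on the macrophage-poor side in the order Model 4, HBG 2, HBG 4. Folds compare mean log2 CPM, computed with a prior count of 2, which understates the change of low genes.

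The macrophage genes themselves show what was selected. Spp1, which encodes the secreted matrix protein osteopontin, had 1655, 906 and 688 CPM in macrophage-rich lungs and 108, 246 and 120 CPM in macrophage-poor lungs, a 6.86-fold difference. Control was at 43.9 to 146 CPM, so the macrophage-poor lungs overlapped Control and the macrophage-rich lungs lay above every other library of the study. Cd68, a lysosomal membrane glycoprotein of macrophages, had 88.1, 53.6 and 43.8 CPM against 20.5, 23.03 and 15.8 CPM. The left-out libraries reached 45.5 and 59.0 CPM of Cd68, in the range of the macrophage-rich side, but only 255 and 106 CPM of Spp1. Both marker genes separated the sides, which is no result because they belong to the genes by which the sides were chosen. Spp1 placed the left-out libraries near the macrophage-poor lungs and Cd68 placed them among the rich ones.

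Gpnmb, a transmembrane glycoprotein of lipid-laden and scar-associated macrophages, had the widest gap of the list, with 187, 178 and 121 CPM against 9.54, 19.4 and 11.6 CPM (12.2-fold). The elastase Mmp12 had 84.3, 63.3 and 133.5 CPM against 6.39, 10.4 and 6.77 CPM (11.5-fold). HBG 1 was the highest of the 6 for Mmp12 and the lowest on its side for Spp1, Cd68 and Gpnmb. Of the 34 monocyte-derived macrophage genes, 28 were higher in every macrophage-rich library than in every macrophage-poor one, with a median log2 difference of 1.07. Over all 17827 genes tested, 14.0% lay in that order and 10.4% in the reverse order, with a median log2 difference of 0.01. These 2 shares are the background for every count of higher and lower genes given below. Ctss and Ctsb, cathepsins among the most abundant genes of the list, differed 3.55-fold and 1.71-fold, and Apoe, the apolipoprotein that macrophages and type II cells make, 1.86-fold. The 6 macrophage genes whose sides overlapped were Fabp5, Ccr2, Lpl, Lyz2, Csf1r and Cd9. In this list, 26 genes were higher in the macrophage-rich lungs than in all 4 Control libraries (background 11.4%), and 4 were so in the macrophage-poor lungs (background 4.0%). Without Control 4 these were 27 and 4 genes (background 13.1% and 7.04%). Since the genes of this list served to choose the libraries, its counts are no result.

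Resident alveolar macrophage genes did not move as a block. Of 17 tested, 3 lay higher (17.6%) and 2 lower (11.8%) on the macrophage-rich side, near the 14.0% and 10.4% of all genes. The differences were above 0 for 10 genes and below 0 for 7, with a median log2 difference of 0.32. Krt79, a keratin listed as an alveolar macrophage marker, was at 2.24, 1.54 and 1.03 CPM against 5.48, 6.33 and 7.26 CPM, and Fabp1, a fatty acid binding protein, was at 0.64, 0.50 and 0.09 CPM against 1.98, 1.89 and 2.77 CPM. The scavenger receptor gene Marco overlapped, with 17.5, 2.53 and 1.35 CPM against 6.75, 9.30 and 6.99 CPM. The list score was 0.53 in Model 1, but -0.22 in Model 3 and -0.62 in HBG 1, against -0.31 to -0.11 in macrophage-poor lungs. HBG 1 had the lowest alveolar macrophage score of these 6 libraries while its monocyte-derived score was high.

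**Figure D1:**
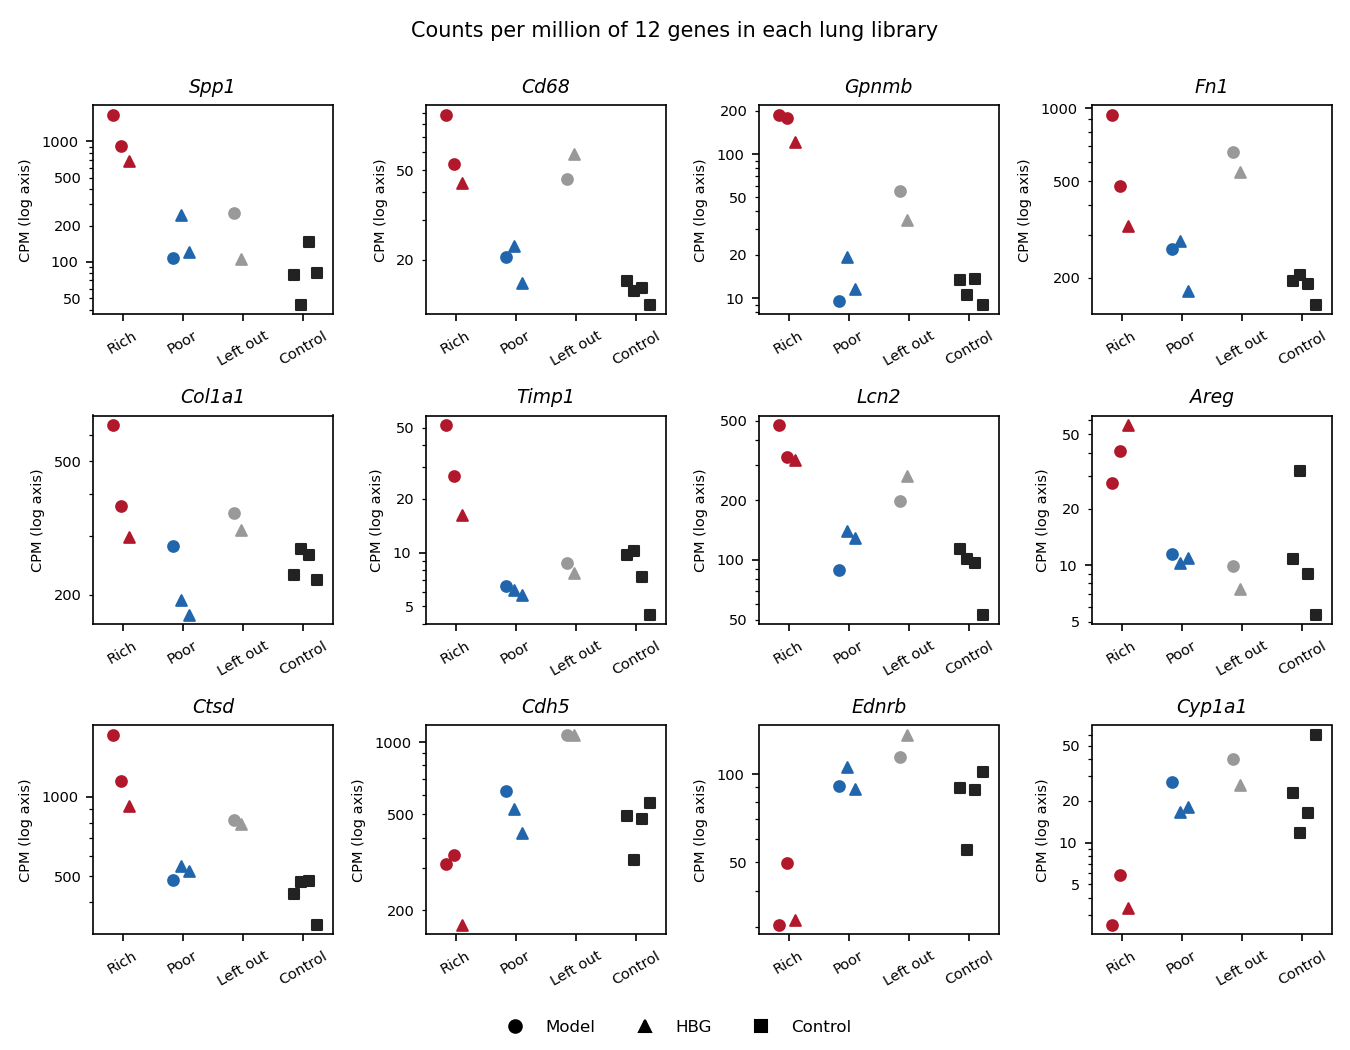
CPM (log axis) of 12 genes in each library, as red points for macrophage-rich, blue for macrophage-poor, grey for left-out and black for Control libraries; circles are Model, triangles HBG and squares Control. Each gene has all 3 macrophage-rich libraries on one side of all 3 macrophage-poor ones, for example Gpnmb at 121 CPM or more against 19.4 CPM or less, and Ednrb at 49.7 CPM or less against 88.7 CPM or more.

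Outside the macrophage lists the 2 sides also differed in many genes. In all, 2493 genes lay higher and 1854 lower in every macrophage-rich library, and 366 and 161 of these differed at least 2-fold (2.05% and 0.903% of the genes tested). Of the 2493 higher genes, 1298 (52.1%) were also higher in the macrophage-rich lungs than in all Control libraries, and for 2181 (87.5%) the macrophage-poor lungs overlapped Control. Of the 1854 lower genes, 686 (37.0%) were also below all Control libraries in macrophage-rich lungs, and for 1586 (85.5%) the macrophage-poor lungs overlapped Control. Against Control, 2027 genes were higher and 1525 lower (8.55%) in macrophage-rich lungs, while 713 were higher and 895 lower (5.02%) in macrophage-poor lungs. Without Control 4, which also changes which genes pass the filter, 1334 of 2241 higher genes (59.5%) and 949 of 2116 lower genes (44.8%) were apart from Control in macrophage-rich lungs, and macrophage-poor lungs overlapped Control in 79.2% and 75.7%. The counts against Control were then 2378 and 2298 in macrophage-rich lungs and 1275 and 1520 in macrophage-poor lungs. Leaving out 1 library makes the order easier to meet by construction. Between the sides the counts were then largest without HBG 1 (4167 and 3346), and the lower count also passed 1.5 times its size without Model 3 (2871) or HBG 4 (3055). Against Control, the macrophage-rich counts passed it without HBG 1 (3372 and 2756), and the lower one without Model 3 (2566), Control 2 (2491) or Control 4. The macrophage-poor counts passed it without Model 4 (1316 and 1436), HBG 2 (1384 and 1518), HBG 4 (1681 and 1692), Control 4 or, for the higher count, Control 1 (1084), and for the lower count Control 2 (1396). The 3 comparisons share libraries, so their counts are given side by side and not as independent evidence.

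The promoters of 4 genes that lay higher on the macrophage-rich side are printed because they hold the motifs searched and stand for groups described here: 2 macrophage genes, a gene of the transitional epithelium and a cathepsin. PU.1, the myeloid transcription factor, binds sites of the type GAGGAAGT, AP-1 (Fos and Jun) binds TGANTCA, and TFEB, which switches on lysosomal genes, binds the core TCACGTGA of the CLEAR element. Each sequence is the 250 bases before a RefSeq start of the gene, from RefSeq on GRCm38.p6, 5′ to 3′ on the gene's strand. Capitals mark a match on either strand. Spp1 has 2 such windows, and the first is printed. Spp1 lies on the plus strand at chr5:104434861-104435110 with a PU.1-type match, and Cd68 on the minus strand at chr11:69666171-69666420 with 2 AP-1 matches. Sprr1a lies on the minus strand at chr3:92485882-92486131 with 2 AP-1 matches, and Ctsd on the minus strand at chr7:142387828-142388077 with a CLEAR core.
Spp1: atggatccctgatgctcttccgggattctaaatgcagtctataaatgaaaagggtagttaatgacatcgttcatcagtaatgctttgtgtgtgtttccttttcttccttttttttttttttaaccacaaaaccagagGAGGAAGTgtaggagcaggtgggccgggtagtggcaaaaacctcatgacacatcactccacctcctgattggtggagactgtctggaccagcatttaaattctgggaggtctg
Cd68: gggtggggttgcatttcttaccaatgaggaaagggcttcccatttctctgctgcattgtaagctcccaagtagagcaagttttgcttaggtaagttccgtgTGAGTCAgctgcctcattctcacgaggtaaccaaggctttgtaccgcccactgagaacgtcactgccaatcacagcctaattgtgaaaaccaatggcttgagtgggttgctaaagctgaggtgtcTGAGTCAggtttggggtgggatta
Sprr1a: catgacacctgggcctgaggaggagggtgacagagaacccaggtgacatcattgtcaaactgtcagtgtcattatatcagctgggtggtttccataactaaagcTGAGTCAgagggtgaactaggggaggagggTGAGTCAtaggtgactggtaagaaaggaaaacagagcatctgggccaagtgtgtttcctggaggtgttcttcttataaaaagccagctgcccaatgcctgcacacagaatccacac
Ctsd: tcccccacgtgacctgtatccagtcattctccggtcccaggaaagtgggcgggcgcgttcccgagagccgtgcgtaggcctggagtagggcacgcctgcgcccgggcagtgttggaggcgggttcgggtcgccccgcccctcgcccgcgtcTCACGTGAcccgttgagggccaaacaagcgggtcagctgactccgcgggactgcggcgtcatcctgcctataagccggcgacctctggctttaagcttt

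Shares were counted over the RefSeq windows of 250 bases before to 50 after each start, for genes with at least 1 window. The AP-1 letters were found for 43 of 233 genes that were at least 2-fold higher in macrophage-rich lungs (18.5%), for 8.74% of those at least 2-fold lower and for 6.88% of the 12599 tested genes with a window. PU.1-type letters were found for 9.87%, 2.91% and 3.71%. The 2-fold higher genes include macrophage genes by which the sides were chosen. In the monocyte-derived macrophage list the shares were 20.8% for AP-1 and 16.7% for PU.1-type letters. In the capillary lists, described below as lower, AP-1 letters were found for 3 of 21 genes (14.3%) and PU.1-type letters for 0. The CLEAR core was found for 7 of 32 lysosomal genes (21.9%) against 1.92% of all tested genes, and for 0.429% of the 2-fold higher genes. None of the 3 motifs contains another. A match describes the letters in the window and no binding was measured.

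Pro-inflammatory cytokines and chemokines, none of which was in a macrophage list, were higher in macrophage-rich lungs in 17 of 26 genes and lower in 0, with a median log2 difference of 1.36. Being outside those lists does not make them independent of the choice, because bulk RNA does not show which cells they came from. The monocyte chemoattractant Ccl2 had 6.56, 4.16 and 3.08 CPM against 0.66, 1.35 and 0.94 CPM. Its neighbour Ccl7 had 5.66, 2.26 and 2.43 CPM against 0.30, 0.49 and 0.39 CPM (6.69-fold). Cxcl13, which draws B cells, had 4.11, 2.40 and 18.7 CPM against 1.37, 1.03 and 0.67 CPM. HBG 1 was the highest of the 3 for Cxcl13 and Model 1 for Ccl2 and Ccl7. Saa3, an acute phase protein, was at 105, 36.9 and 14.0 CPM against 3.35, 4.06 and 4.99 CPM (9.09-fold) and was likewise highest in Model 1. The interleukin gene Il6 separated at low levels, with 2.24, 1.49 and 1.35 CPM against 0.25, 0.76 and 0.61 CPM.

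The cytokine list score was 0.94, 0.53 and 0.69 in macrophage-rich lungs and -0.60, -0.38 and -0.56 in macrophage-poor ones. Control libraries lay at -0.58 to -0.43, except Control 2 at 0.40. Control 2 also held 18.6 CPM of the neutrophil chemokine Cxcl1 and 6.71 CPM of Il6, above all 6 bleomycin libraries compared, together with 1079 CPM of the immediate-early gene Egr1 against 36.3 to 244 CPM in those 6. Egr1 and Cxcl1 are named here after their values were seen. Of the 26 cytokine genes, 12 were higher in macrophage-rich lungs than in every Control library, with or without Control 4 (background 11.4% with it and 13.1% without). Tnf, Il1b and Csf1, the growth factor that maintains macrophages, overlapped between the sides, with Csf1 at 50.9, 41.5 and 44.5 CPM against 46.7, 45.3 and 39.3 CPM.

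Lysosomal genes other than the cathepsins that served to choose the sides also lay higher on the macrophage-rich side. Macrophages digest debris in lysosomes, so these genes are not independent of the choice. Of 40 lysosomal genes outside the macrophage lists, 21 lay higher (52.5%, beside 14.0% of all genes) and 0 lower, with a median log2 difference of 0.34. Of the 40, 25 were higher than in every Control library (background 11.4%), and 23 were so without Control 4 (background 13.1%). Acp5, the tartrate-resistant acid phosphatase, had 52.0, 29.0 and 38.2 CPM against 11.4, 15.6 and 17.1 CPM (2.65-fold). Psap, the precursor of the sphingolipid activator proteins, had 2189, 1569 and 1436 CPM against 922, 938 and 861 CPM, and the protease Lgmn had 279, 233 and 189 CPM against 129, 128 and 119 CPM. Model 1 was the highest library for all 3 genes. The lysosome membrane gene Lamp1 overlapped, with 839, 755 and 679 CPM against 677, 730 and 715 CPM. Among the cathepsins used in the choice, Ctsd had 1716, 1148 and 928 CPM against 485, 545 and 522 CPM.

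Man2b2, a lysosomal mannosidase, is the lysosomal gene that also passed the labelled test. Its levels were 72.8, 63.7 and 68.1 CPM in macrophage-rich lungs, 62.0, 55.0 and 51.2 CPM in macrophage-poor lungs and 41.4 to 47.6 CPM in Control. Both sides lay above Control, and the log2 difference of Model from Control was 0.64 (edgeR adjusted p = 0.0416). The call was lost without a filter on low counts (edgeR adjusted p = 0.0611) and without any 1 of Control 1 to Control 4, Model 1, Model 2, Model 3 or HBG 2 (edgeR adjusted p from 0.0640 to 0.149).

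Genes of alternative activation, the repair-type program of macrophages, lay higher in 7 of 14 and lower in 2, with a median log2 difference of 0.56. The macrophage lists hold 3 of these genes, and of the other 11 genes 5 lay higher. Clec7a, the beta-glucan receptor dectin-1, had 151, 77.6 and 74.1 CPM against 15.7, 29.6 and 22.4 CPM (4.36-fold), above Control at 18.2 to 27.8 CPM. Arg1, the arginase that serves as the usual marker of the program, belongs to the macrophage genes by which the sides were chosen, and its levels were low, with 6.19, 1.72 and 4.34 CPM against 1.12, 0.97 and 1.22 CPM. Control 1 had 3.23 CPM of Arg1, more than Model 3, so this gene did not set macrophage-rich lungs apart from Control.

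Complement and antigen presentation genes followed. Of 18 complement genes 10 lay higher, of which 3 are the C1q chains that the macrophage list holds, and of the other 15 genes 7 did. The chains C1qa and C1qb each differed 2.44-fold. C3ar1, the receptor of the C3a fragment, had 20.4, 13.1 and 14.8 CPM against 4.67, 6.06 and 4.66 CPM (3.07-fold), and C4b, which encodes a complement component that is split during activation, had 376, 307 and 368 CPM against 210, 209 and 178 CPM. Of 12 MHC class II genes 8 lay higher and 0 lower. Cd74, the invariant chain that guides class II molecules, had 1352, 960 and 1213 CPM against 675, 704 and 598 CPM. The left-out libraries were above all of these, with 1628 and 1846 CPM of Cd74. H2-DMa, which loads peptides on class II molecules, and Ctsh, a cathepsin of the same list, differed 1.67-fold and 1.86-fold. Dendritic cell genes lay higher in 8 of 15 and lower in 1. Among the higher ones was the low-level transcription factor gene Batf3 with 2.19, 1.72 and 2.38 CPM against 0.41, 0.76 and 0.39 CPM. The chemokine receptor gene Xcr1 and the integrin gene Itgae, both of cross-presenting dendritic cells, also lay higher, with Xcr1 at 0.96, 1.13 and 1.73 CPM against 0.25, 0.92 and 0.39 CPM. The left-out libraries had 5.503 and 7.47 CPM of Xcr1 and Control 4 had 4.05 CPM, against 0.16 to 0.22 CPM in the other Control libraries. MHC class I genes did not follow, with 1 of 16 higher, and type I interferon genes did so in 2 of 24, below the background of 14.0%.

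Plasma cell genes lay higher in 6 of 14 (42.9%) and lower in 1, the transcription factor gene Prdm1, beside 14.0% and 10.4% of all genes. The genes of this list are named after their values were seen. Sdc1 and Xbp1 were among the 6 higher genes. Xbp1 had 184, 184 and 173 CPM against 153, 154 and 159 CPM, with Control at 172 to 178 CPM. Mzb1, Irf4, Pou2af1, Derl3, Ighg2b and Ighg3 overlapped between the sides. Igha, the heavy chain of IgA, had 568, 180 and 1005 CPM against 64.1, 167 and 118 CPM, and Jchain, which links antibody units, had 200.4, 76.6 and 357 CPM against 21.5, 58.3 and 39.0 CPM. Ighg1, an IgG heavy chain, overlapped, with 7.47, 9.64 and 219 CPM against 0.91, 14.0 and 0.94 CPM, and most of its difference lay in HBG 1. Reads of immunoglobulin genes can be shared between near-identical segments. B cell genes had 1 of 14 higher and 1 lower.

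Cytotoxic lymphocyte genes went the other way. Of 14 natural killer and cytotoxic genes 7 lay lower and 0 higher in macrophage-rich lungs, with a median log2 difference of -1.41. The perforin gene Prf1 had 0.75, 0.995 and 2.29 CPM against 6.29, 8.38 and 3.94 CPM (4.63-fold lower), and the granzyme gene Gzma had 5.44, 5.52 and 9.47 CPM against 15.2, 42.1 and 20.3 CPM (3.54-fold lower). Gzmb, the other main granzyme, had 1.81, 1.58 and 3.27 CPM against 5.53, 10.8 and 7.38 CPM (3.48-fold lower). Control was at 2.002 to 4.96 CPM of Prf1 and 9.26 to 25.9 CPM of Gzma, with Control 2 lowest for both, so macrophage-rich lungs overlapped Control. The left-out libraries had 18.9 and 15.6 CPM of Prf1, more than any other library. T cell genes separated in 1 of 20, and Cd3e, a chain of the T cell receptor complex, overlapped. Cd79a, of the B cell receptor, overlapped too and reached 66.3 and 81.8 CPM in the left-out libraries against 17.6 CPM or less in the 6 compared. Of 14 genes of mast cells, basophils and eosinophils only 4 were tested, of which Gata2, also an endothelial transcription factor, and the chymase gene Cma1 lay lower.

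**Figure D2:**
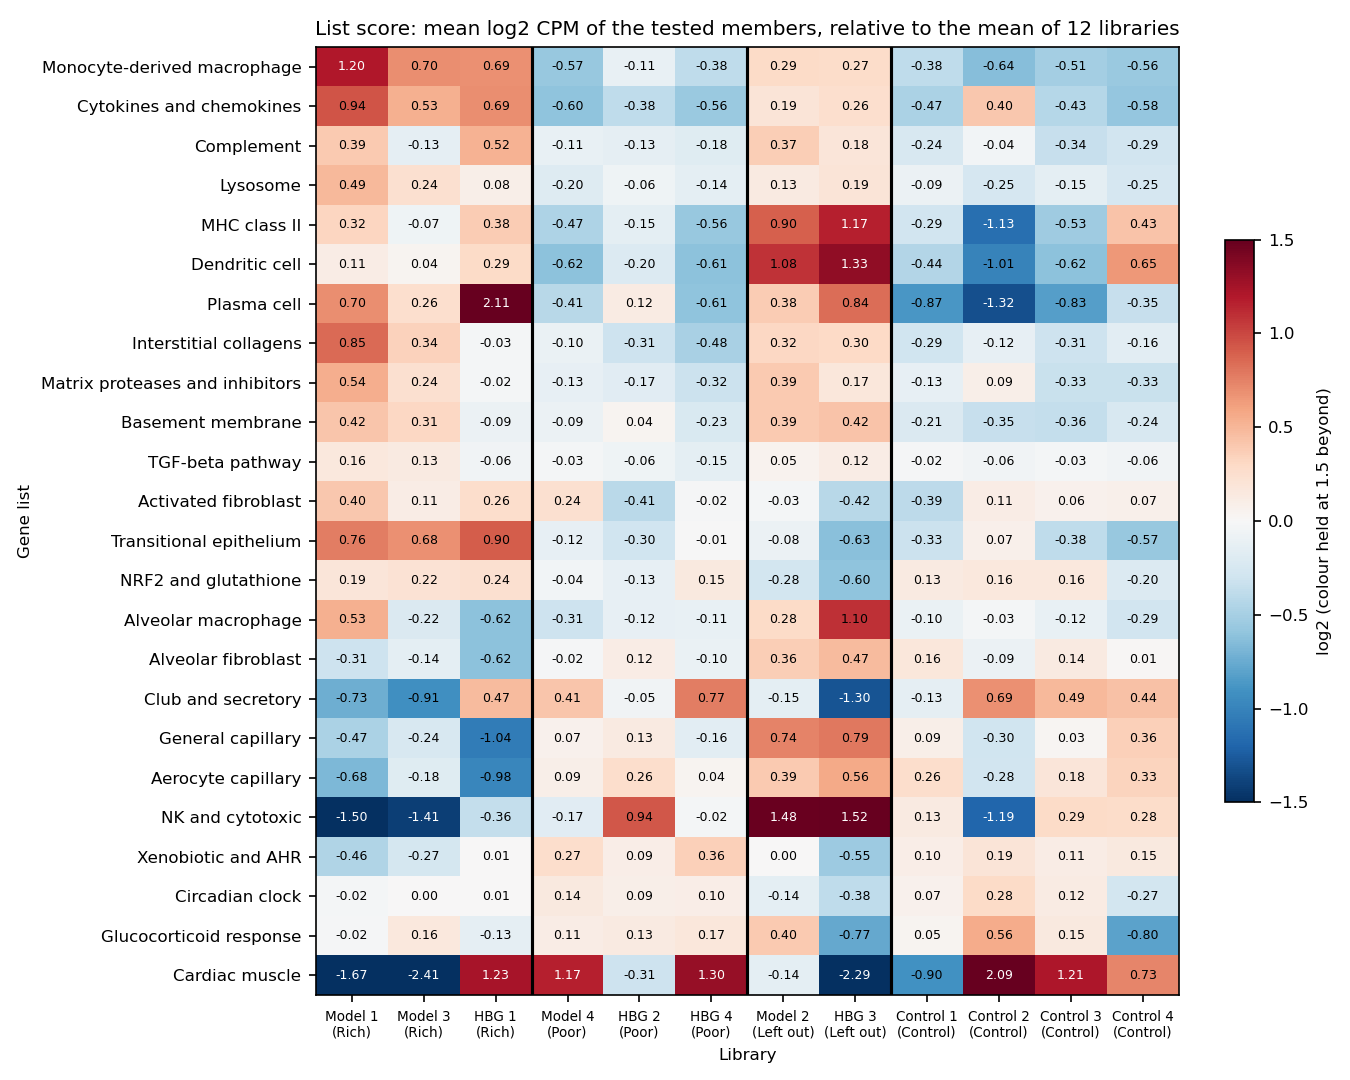
Score of 24 gene lists (rows; colour is mean log2 CPM relative to the mean library) in the 12 libraries (columns), ordered as macrophage-rich, macrophage-poor, left-out and Control. The macrophage-rich columns are high for transitional epithelium (0.68 to 0.90) and low for aerocytes (-0.98 to -0.18), and the macrophage-poor columns lie within the Control range for transitional epithelium (-0.57 to 0.07).

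Among the matrix lists the interstitial collagens had the highest share of higher genes. Of 14 interstitial collagens 9 lay higher and 0 lower, with a median log2 difference of 0.76. In macrophage-rich lungs 6 of the 14 were above all Control libraries (background 11.4%), and 9 were without Control 4 (background 13.1%). Col1a1, the main chain of type I collagen, had 641, 367 and 298 CPM against 279, 192 and 174 CPM (1.96-fold). Col3a1, the chain of type III collagen, had 1136, 692 and 489 CPM against 426, 333 and 310 CPM (2.06-fold), and Col5a3 had 13.1, 9.05 and 7.28 CPM against 6.24, 4.54 and 3.60 CPM. HBG 1 was the lowest macrophage-rich library and Model 4 the highest macrophage-poor one for all 3 collagens, so the gap between the sides was narrow: HBG 1 and Model 4 differed by 298 to 279 CPM in Col1a1. Control was at 221 to 273 CPM of Col1a1, and the left-out libraries were at 350 and 311 CPM, on the macrophage-rich side of the gap.

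The collagen score was 0.85, 0.34 and -0.03 against -0.10, -0.31 and -0.48, with Control at -0.31 to -0.12. All the macrophage-rich libraries were therefore above Control, while HBG 2 and HBG 4 were at or below its lower end. Fn1, the fibronectin gene shared with the alternative activation list, had 938, 477 and 327 CPM against 263, 283 and 177 CPM (2.23-fold). In the labelled comparison of Model with Control the Fn1 difference did not pass (edgeR adjusted p = 0.119). Tenascin C (Tnc), a matrix glycoprotein of wounds, had 148, 75.1 and 57.3 CPM against 43.8, 19.4 and 27.3 CPM (3.01-fold). Of the 28 matrix glycoproteins and proteoglycans 5 lay higher and 3 lower (17.9% and 10.7%), near the 14.0% and 10.4% of all genes. Basement membrane genes had 6 of 20 higher (30%) and 1 lower (5%).

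Enzymes that cut matrix and their inhibitors lay higher in 8 of 21 genes and lower in 1. Timp1, an inhibitor of metalloproteinases, had 51.7, 26.7 and 16.2 CPM against 6.55, 6.16 and 5.82 CPM (4.51-fold), above the 4.49 to 10.2 CPM of Control. The membrane-bound protease Mmp14 had 169, 103 and 93.8 CPM against 67.9, 61.2 and 52.1 CPM. Timp3, which the labelled test called higher in Model than in Control (log2 difference 0.64, edgeR adjusted p = 0.0341), overlapped between the sides, with 1021, 1016 and 775 CPM against 997, 992 and 894 CPM. Its Control range was 621 to 704 CPM, below both sides. The call was lost without a filter on low counts (edgeR adjusted p = 0.0747) and without any 1 of the Control libraries, Model 1, Model 2, Model 3, HBG 2 or HBG 4 (edgeR adjusted p from 0.0504 to 0.138). Collagen processing genes, with 3 of 24 higher and 1 lower, stayed near the background share.

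Markers of activated fibroblasts and smooth muscle gave little separation. Of 17 activated fibroblast genes 3 lay higher (17.6%), near the 14.0% of all genes. They were Sfrp1, a secreted Wnt antagonist, with 108, 56.8 and 51.2 CPM against 19.4, 21.3 and 19.7 CPM, and Adam12 and Runx1 with smaller gaps. Cthrc1, a marker of collagen-producing fibroblasts, and Postn, the periostin gene, overlapped. Acta2, smooth muscle actin, overlapped as well, and 0 of 12 smooth muscle genes separated in either direction. Alveolar fibroblast genes had 4 of 16 lower and 1 higher, the latter a gene shared with the macrophage lists. Inmt, a methyltransferase of alveolar fibroblasts, had 352, 509 and 363 CPM against 907, 1157 and 900.2 CPM, and the fibroblast transcription factor gene Tcf21 had 45.7, 59.1 and 34.8 CPM against 74.5, 105 and 80.7 CPM.

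Genes of the TGF-beta pathway lay in both directions, with 10 of 22 higher (45.5%) and 5 lower (22.7%), beside 14.0% and 10.4% of all genes. Itgb6, whose integrin frees latent TGF-beta at the epithelium, had 83.9, 81.9 and 70.1 CPM against 33.4, 42.9 and 42.0 CPM, and the ligand gene Tgfb2, the receptor genes Tgfbr1 and Tgfbr2, the signal mediator Smad3 and the integrin chain Itgav lay higher too. Of the remaining higher genes Ccn1, Ccn2 and Tgfbi are targets of the pathway and Tgif1 encodes a repressor of it. The lower genes included the co-receptor Tgfbr3, with 67.7, 81.3 and 75.1 CPM against 156, 142 and 122 CPM, and the inhibitory Smad6, with 47.7, 82.5 and 43.9 CPM against 143, 130 and 143 CPM. The other 3 lower genes were Smad7 and Bambi, which inhibit the pathway, and Smad4, which all its branches use. The ligand gene Tgfb1 overlapped, with 61.6, 54.9 and 40.8 CPM against 53.6, 51.5 and 36.4 CPM. Bmp6, an endothelial ligand of the related BMP branch, had 69.6, 114 and 53.2 CPM against 194, 170 and 156 CPM.

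Genes that mark the transitional epithelial state lay higher in macrophage-rich lungs, though bulk RNA does not show which cells they came from. Of 18 transitional genes 13 lay higher and 0 lower, and 12 of 17 did so without Lgals3, which the macrophage list shares. Sprr1a, a cornified envelope precursor whose printed promoter holds 2 AP-1 matches, had 5.44, 5.29 and 4.85 CPM against 1.07, 1.03 and 1.55 CPM (4.09-fold). Cldn4, a tight junction claudin, had 45.1, 30.4 and 57.1 CPM against 16.9, 11.4 and 19.0 CPM. Lcn2, a siderophore-binding protein, had 477, 331 and 318 CPM against 89.0, 139 and 128 CPM (3.16-fold). The score was 0.76, 0.68 and 0.90 against -0.12, -0.30 and -0.01, with Control at -0.57 to 0.07. Unlike the collagens, this list was highest in HBG 1. The left-out libraries were at -0.08 and -0.63, within and below the range of the macrophage-poor lungs.

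Of 25 growth factor ligands 8 lay higher (32%) and 2 lower (8%), beside 14.0% and 10.4% of all genes. The genes with the widest gaps were Ereg and Areg, both of the epidermal growth factor family. Areg, amphiregulin, had 27.6, 40.8 and 56.2 CPM against 11.5, 10.3 and 10.9 CPM (3.63-fold), and Control was at 5.43 to 10.8 CPM except Control 2 at 31.9 CPM. Ereg, epiregulin, had 6.62, 5.02 and 7.51 CPM against 1.12, 0.59 and 0.78 CPM, above Control at 0.59 to 1.55 CPM. Hbegf of the same family lay higher, while its members Tgfa and Egf overlapped. The insulin-like growth factor gene Igf1 had 107, 62.4 and 38.7 CPM against 28.8, 19.1 and 22.4 CPM, and its HBG 1 value lay within the Control range of 26.8 to 42.7 CPM. Over the 25 ligands the median log2 difference was 0.06, which turned sign without Model 1 (-0.0154) or HBG 4 (-0.00324). Krt8, the keratin often used to name the transitional state, overlapped, with 401, 366 and 620 CPM against 341, 250 and 434 CPM.

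Differentiated alveolar epithelium differed less. Among 17 type I genes 5 lay higher (29.4%) and 1 lower (5.88%), beside 14.0% and 10.4% of all genes. The lower one was Cav1, the caveolin gene, which endothelium also expresses. Ager, the classical type I marker, overlapped. Over the 17 genes, 12 differences were above 0 and 5 below, with a median log2 difference of 0.23. Of 19 type II genes 2 lay higher, the lipid synthesis genes Scd1 and Fasn. Sftpc overlapped and was lowest in HBG 1, at 7736 CPM. Scgb1a1, the secretoglobin of club cells, and Foxj1, which sets up cilia, overlapped. In the airway lists 3 of 19 club cell genes lay lower (15.8%, beside 10.4% of all genes) and 0 of 20 ciliated genes separated. The club score was -0.73 and -0.91 in Model 1 and Model 3 but 0.47 in HBG 1, against -0.05 to 0.77 in macrophage-poor lungs.

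Capillary endothelium was lower in macrophage-rich lungs. Of 18 general capillary genes 9 lay lower and 0 higher, with a median log2 difference of -0.69, and of 14 aerocyte genes 10 lay lower and 0 higher, also with -0.69. Cdh5, the cadherin of endothelial junctions, had 312, 340 and 174 CPM against 627, 526 and 417 CPM (1.95-fold lower). Plvap, which spans the openings of capillary cells, had 147, 166 and 74.0 CPM against 294, 250.01 and 233 CPM (2.12-fold lower). Ednrb, the endothelin receptor that marks aerocytes, had 30.6, 49.7 and 31.6 CPM against 91.1, 106 and 88.7 CPM (2.61-fold lower). Pecam1, the common endothelial adhesion molecule, had 452, 477 and 269 CPM against 776, 671 and 557 CPM (1.71-fold lower), and Control was at 418 to 637 CPM. Ptprb, an endothelial phosphatase, and Car4, the carbonic anhydrase of the capillary surface, differed 1.87-fold and 1.89-fold in the same direction. HBG 1 had the lowest level of each of these 6 genes except Ednrb among the 12 libraries.

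The aerocyte score was -0.68, -0.18 and -0.98 against 0.09, 0.26 and 0.04, and the general capillary score was -0.47, -0.24 and -1.04 against 0.07, 0.13 and -0.16. Control reached down to -0.28 and -0.30, in Control 2, so on both scores Model 3 overlapped Control. The left-out libraries had the highest general capillary scores, 0.74 and 0.79. Of 18 venous, arterial and adhesion genes 3 lay higher (16.7%) and 4 lower (22.2%), beside 14.0% and 10.4% of all genes. Selp, P-selectin of venules and platelets, had 10.1, 6.79 and 7.37 CPM against 7.87, 4.76 and 6.54 CPM, and Control was at 3.498 to 4.20 CPM. The sides overlapped and both lay above Control. In the labelled comparison Selp was higher in Model than in Control (log2 difference 1.14, edgeR adjusted p = 0.0195), a call lost without any 1 Control library, Model 1 or Model 2 (edgeR adjusted p from 0.0518 to 0.106).

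Among the lowest genes outside any cell type list were those of xenobiotic metabolism and of steroid response. Cyp1a1, the oxidase induced by the aryl hydrocarbon receptor and found in lung endothelium, had 2.56, 5.88 and 3.36 CPM against 27.2, 16.7 and 18.2 CPM (5.34-fold lower), and Control was at 11.8 to 59.6 CPM. Of 20 genes of this kind 8 lay lower and 1 higher. Fmo1, a flavin monooxygenase, had 132, 226 and 159 CPM against 357, 392 and 319 CPM. Zbtb16, a transcription factor induced by glucocorticoids, had 19.9, 36.7 and 14.4 CPM against 116, 79.1 and 78.4 CPM (4.08-fold lower). Its Control range of 9.06 to 55.7 CPM reached as low as the macrophage-rich lungs and lay below every macrophage-poor lung. Of the 15 glucocorticoid response genes 6 lay lower and 3 higher, the latter Lcn2 and the metallothionein genes Mt1 and Mt2. Igfbp3, which binds insulin-like growth factors, had 25.3, 20.6 and 24.7 CPM against 97.9, 74.2 and 61.8 CPM (3.26-fold lower).

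Further genes with wide gaps, outside the marker lists of macrophages, were of several kinds. Cd177, a surface glycoprotein best known from neutrophils, had 106, 44.3 and 551 CPM against 32.1, 11.5 and 21.6 CPM (6.84-fold). Clec4n and Clec5a, C-type lectin receptors of myeloid cells, differed 4.75-fold and 4.55-fold, and Msr1, a scavenger receptor of macrophages, 4.15-fold. S100a8, an abundant neutrophil gene, overlapped, with 5.44, 13.8 and 3.55 CPM against 4.72, 10.6 and 3.05 CPM. Of 16 neutrophil genes 2 lay higher (12.5%), near the 14.0% of all genes. Cd177 was highest in HBG 1, where S100a8 was lowest on its side.

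Cilp, a matrix protein of cartilage and fibroblasts, had 24.8, 10.7 and 13.01 CPM against 3.05, 3.03 and 2.88 CPM (4.93-fold), with Control at 3.19 to 4.84 CPM. Slc26a4, the anion exchanger pendrin, had 25.4, 19.9 and 20.01 CPM against 4.31, 5.19 and 5.55 CPM (4.27-fold). Chl1, a neural cell adhesion molecule, differed 5.64-fold, Ildr2 4.67-fold and Ghrl, the ghrelin gene, 4.53-fold. Tnip3, a low-level inhibitor of NF-kappaB signalling, differed 4.36-fold. For each of these 6 genes the macrophage-rich lungs lay above all Control libraries.

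At the other end, Npr3, the clearance receptor of natriuretic peptides, had 49.3, 62.1 and 27.5 CPM against 160, 166 and 136 CPM (3.5-fold lower), and Control was at 90.8 to 279 CPM. Bex2 had 1.49, 5.48 and 2.19 CPM against 13.9, 11.5 and 11.9 CPM (4.57-fold lower), and Control was higher than both, at 17.6 to 25.7 CPM. Fibin, a secreted protein listed with aerocytes, had 22.8, 43.4 and 16.3 CPM against 77.8, 94.0 and 66.2 CPM (3.10-fold lower). Ankrd63 (3.96-fold), Nrn1 (3.39-fold), Dpysl5 (3.25-fold) and Hif3a (3.09-fold) were lower too. Hif3a, a hypoxia-inducible factor subunit, had 2.13, 3.62 and 2.15 CPM against 9.998, 8.76 and 6.04 CPM while Control was at 2.60 to 3.60 CPM, so here the macrophage-poor lungs were the ones apart from Control. Zbtb16 and Hif3a share this order.

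Tissue of other kinds also differed between the libraries. Cardiac muscle scores were -1.67 and -2.41 in Model 1 and Model 3, 1.23 in HBG 1, and 1.17, -0.31 and 1.30 in macrophage-poor lungs. The cardiac myosin gene Myh6 had 137, 81.0 and 1251 CPM against 1161, 456 and 1144 CPM, and 0 of 21 cardiac genes separated. Adipocyte scores were -1.51, -2.04 and 2.10 against 0.95, -0.42 and 0.56. Hbb-bs, a haemoglobin gene that marks blood, overlapped, with 97.3, 420 and 413 CPM against 524, 550 and 362 CPM. The cardiac and adipocyte lists were low in the 2 macrophage-rich Model libraries and high in HBG 1. Their part in the results above was not tested.

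The sides are unequal in treatment, with 2 Model and 1 HBG libraries against 1 Model and 2 HBG. Within Model, the median log2 difference of the macrophage-rich libraries from Model 4 was 0.75 for collagens, 0.59 for transitional genes, -0.53 for general capillary genes and 1.23 for cytokines. Within HBG, HBG 1 differed from HBG 2 and HBG 4 by 0.32, 0.91, -1.17 and 1.05 in these lists. Each list kept its direction within both treatments. A gene that separates the sides does so within each treatment by construction, so the shared direction adds no support. The collagen difference was smaller within HBG while the transitional and capillary differences were larger. Whether these sizes differ between treatments was not tested. Lysosomal genes differed by 0.50 within Model and 0.11 within HBG, and natural killer genes by -1.32 and -0.60.

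**Figure D3:**
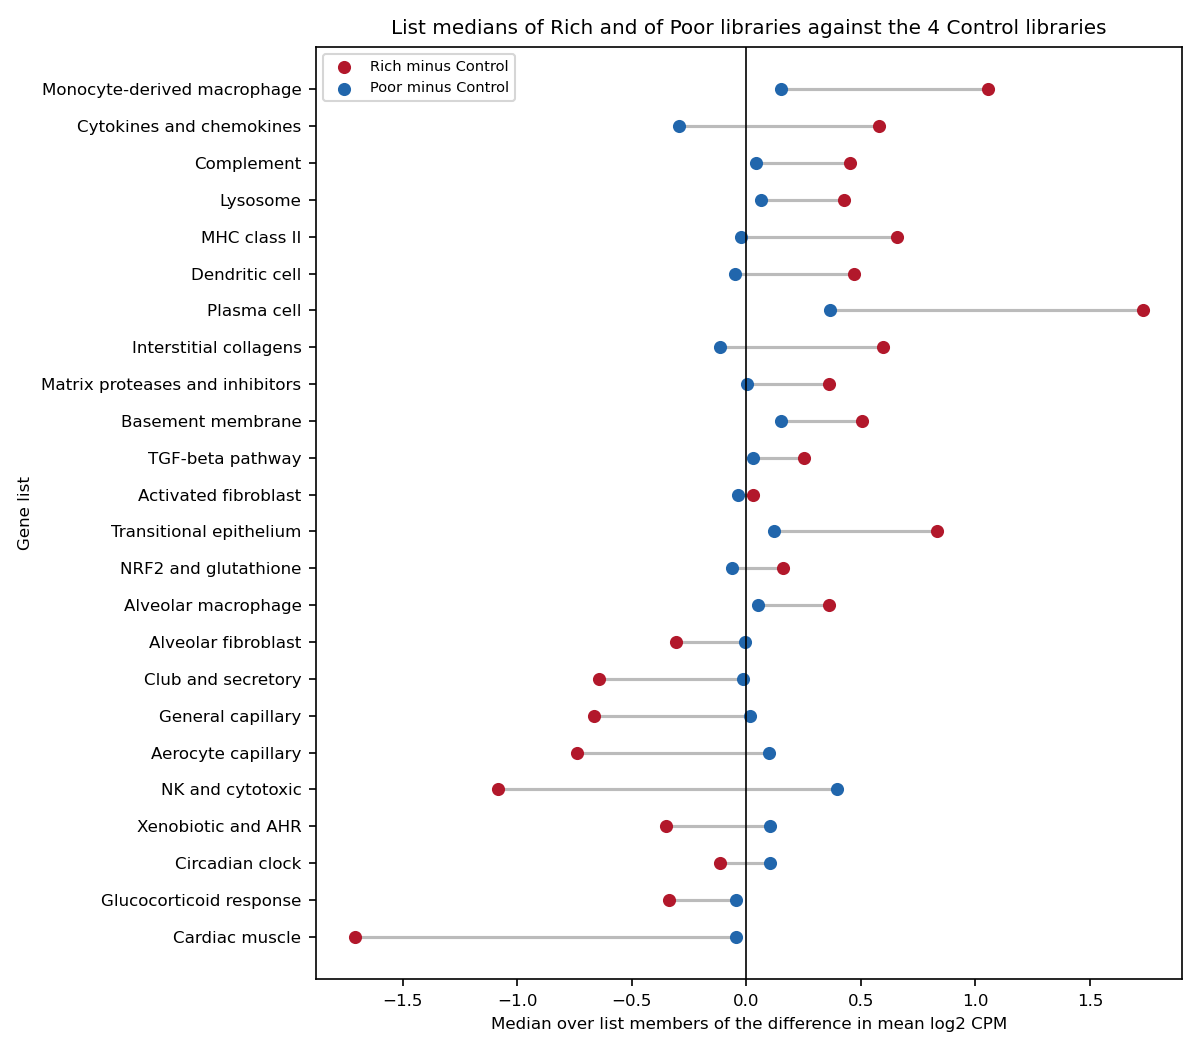
Median log2 difference from the 4 Control libraries of each list's genes, for macrophage-rich (red) and macrophage-poor (blue) lungs, joined by a line. Cytokines lay at 0.58 and -0.29, collagens at 0.60 and -0.11 and aerocytes at -0.74 and 0.10, so the macrophage-poor points of these lists lie nearer to 0 than the macrophage-rich ones.

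The labelled comparisons, which did not use the choice of libraries, called few of the genes that separated the sides. Of 17827 genes edgeR called 9 higher (0.0505%) and 53 lower (0.297%) in Model than in Control, and 2084 had an unadjusted p under 0.05. The 62 calls became 29, 35, 23 and 36 without Control 1, 2, 3 and 4, 32, 28 and 39 without Model 1, 2 and 3, and 100 without HBG 3. Of the genes higher on the macrophage-rich side 5 were called: Man2b2 higher in Model, and Cebpb, Mrps34, Nenf and Rnaset2a lower. Cebpb, a transcription factor of myeloid and epithelial cells, had a log2 difference of Model from Control of -2.39 (edgeR adjusted p = 0.00264), opposite to its direction between the sides. It had 20.2, 26.02 and 22.0 CPM against 17.2, 18.9 and 18.4 CPM, and Control was at 64.7 to 137 CPM. Its transcripts are 67.2% G and C, and the 673 tested genes above 60% had a median log2 level, relative to the mean library, of 0.08 to 0.16 in Control and of -0.04 to 0.02 in the 6 libraries compared, whose part in the call was not tested. Of the genes lower on the macrophage-rich side 6 were called, all lower in Model, among them Ppp1r14a, an inhibitor of myosin phosphatase (-1.95, edgeR adjusted p = 2.57e-05), and Ccdc85b (-1.74, edgeR adjusted p = 8.15e-04). Cebpb, Mrps34, Ppp1r14a and Ccdc85b passed with each single library left out in turn, whereas Nenf and Rnaset2a did not (edgeR adjusted p up to 0.131 and 0.126). These genes are named after their values were seen. None of Spp1 (edgeR adjusted p = 0.192), Cd68 (0.146) or Gpnmb (0.187) passed. HBG against Model gave 0 calls (0%), with 433 genes at an unadjusted p under 0.05 and 4 calls with DESeq2.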

How the data were processed

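Bulk RNA from lung was sequenced in 12 libraries, 4 each of Control, Model and HBG, with paired reads of 150 bases from a TruSeq stranded kit, per the labels' protocols. The deposited table holds estimated counts per gene, not whole numbers throughout, with no normalization visible in the values; the counting tool and annotation that the authors used for it are not given in the sources used here. The submitters' processing notes name, without role or order, the aligners STAR 2.7.9a and HISAT2, the counters featureCounts 2.0.1 and HTSeq, the trimmers Trimmomatic 0.39, fastp and cutadapt, FastQC 0.11.9, DESeq2 1.34.0 and the builds mm10 and GRCm39.

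Counts were rounded to whole numbers. Of 56980 genes, 22654 were at 0 in every library and 17827 passed edgeR's filterByExpr. CPM were scaled by TMM, and log2 CPM used a prior count of 2 (R 4.3.3, edgeR 4.0.16, limma 3.58.1). Chi-square per degree of freedom was 17.42 or more in each of the 66 pairs of libraries, so no library was a copy of another. A gene was said to lie higher or lower where all 3 macrophage-rich libraries were above or below all 3 macrophage-poor ones. The labelled comparisons used edgeR's quasi-likelihood test over all 12 libraries with group as the only term and Benjamini-Hochberg adjustment at 0.05. The script was tested on simulated data with 200 changed genes. Gene lengths and G and C content came from GENCODE transcripts.

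The libraries, the 60 gene lists and the members named were chosen with earlier results of these data known. Named genes are key markers, the 12 largest differences in each direction among genes of at least 5 CPM outside the macrophage lists (predicted and clone names, immune receptor segments and pseudogenes left out), the top 3 of each list in which 50% or more of the genes lay in 1 direction, and the 8 most abundant macrophage genes. Alternatives were DESeq2 1.42.0, RLE factors, library totals, other prior counts and filters, a replicate block, each treatment alone and each library left out. A correction for G and C content and length, and list counts without Control 4, were added after seeing the data.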

Additional observations from a re-analysis of the deposited data

Results flagged for a closer look

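Several libraries lay apart from the other 3 of their labelled group by a gap that chance alone gives in about 1 in 20 groups of values. The scores of 60 lists and the levels of 34 genes in 3 groups make 282 sets of values, in which chance would give about 14.1 such gaps, and 16 were found. On list scores (log2), Control 1 was at -0.39 for activated fibroblast genes against 0.06 to 0.11, and Control 2 was at -1.19 for cytotoxic genes against 0.13 to 0.29 and at 0.40 for cytokines against -0.58 to -0.43. Control 3 was at -0.12 for lipid handling genes against -0.20 to -0.19. Control 4 was at -0.49 for alternative activation, at -1.46 for p53 targets and at -0.20 for NRF2 and glutathione genes, against 0.40 to 0.58 for p53 targets in the other Control libraries. HBG 3 was at -1.15 for p53 targets against 0.16 to 0.39 and at 1.42 for erythroid genes against -0.71 to -0.64. Model 2 was at 1.57 for T cell genes against -0.75 to -0.51.

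Single genes gave the same kind of gap, as log2 CPM. Krt8 was at 8.56 in Control 2 and Scgb1a1 at 15.9 in Control 3. Cdkn1a was at 5.79 in Control 4 and 6.20 in HBG 3, against 8.90 or more in the rest of either group. Gdf15, a p53-responsive cytokine, was at -0.53 in Control 4 and 1.03 in HBG 3. Neither left-out bleomycin library nor Control 4 enters the 2 sides, and Control 4 enters the Control ranges.

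In 12 lists the macrophage-rich libraries lay on opposite sides of the macrophage-poor ones within Model and within HBG, and these differences were not tested. The differences of list scores within Model and within HBG were 0.46 and -0.50 for resident alveolar macrophages, -0.99 and 0.53 for smooth muscle, 0.42 and -0.23 for type II cells, and 0.42 and -0.05 for type I cells. They were -0.44 and 0.50 for ciliated cells, 0.21 and -0.23 for venous and arterial endothelium, -0.15 and 0.42 for T cells, and -0.57 and 0.75 for B cells. They were 0.30 and -0.19 for p53 targets, -0.49 and 0.22 for fatty acid oxidation, -2.72 and 2.04 for adipocytes, and 0.46 and -0.15 for cytosolic ribosomal genes. Each is a difference between 3 libraries within a treatment.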

How the results depend on the processing

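The 2493 higher and 1854 lower genes were 2305 and 2076 with RLE factors, 2435 and 1872 with library totals, and 2114 and 1802 after a correction for G and C content and length chosen after seeing the data. Within Model only, with 2 libraries against 1, they were 7572 and 7016, and within HBG only 7097 and 6655, since fewer libraries have to lie in order. Leaving out each library gave 3008 to 4167 higher and 2376 to 3346 lower genes between the sides, 2117 to 3372 and 1977 to 2756 for macrophage-rich lungs against Control, and 1044 to 1681 and 1244 to 1692 for macrophage-poor lungs against Control. The growth factor median of 0.06 was 0.18 without HBG 1 and turned to -0.0154 without Model 1, -0.00324 without HBG 4 and -0.0257 within HBG only. Model against Control had 62 calls, 23 to 100 with 1 library left out (100 without HBG 3) and 444 with DESeq2, and HBG against Model had 0, 0 to 0 with 1 library left out and 4 with DESeq2; the cause was not tested. With the replicate block Model against Control had 25 calls, and Selp (edgeR adjusted p = 0.0827), Timp3 (0.123) and Man2b2 (0.0802) lost theirs. Deviations of same-numbered libraries correlated by -0.20 to 0.16 for Model with Control and by -0.20 to 0.48 for HBG with Model, highest for number 4. These few values of mixed sign cannot decide whether the shared numbers pair the libraries. Depth limits the lowest genes: 3 counts correspond to 0.11 to 0.167 CPM, so a level below it, such as Fabp1 in HBG 1, rests on fewer than 3 counts.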

Other observations

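Some lists of metabolic and stress genes held more genes apart between macrophage-rich and macrophage-poor lungs than the share of all genes, and others did not; members outside the naming rule are named after their values were seen. Of 20 NRF2 and glutathione genes 10 lay higher and 1 lower. Slc7a11, the cystine importer, had 8.75, 8.82 and 14.8 CPM against 4.11, 3.30 and 3.88 CPM (2.75-fold), above Control at 2.96 to 4.10 CPM. Hmox1, haem oxygenase, had 83.4, 63.0 and 60.3 CPM against 40.9, 42.8 and 48.1 CPM. Gpx3, a secreted glutathione peroxidase, was the lower one, with 830, 766 and 650 CPM against 1257, 1136 and 918 CPM. Of 23 glycolysis and hypoxia genes 9 lay higher and 2 lower, with the lactate dehydrogenase gene Ldha at 437, 405 and 430 CPM against 270, 284 and 339 CPM. Of 24 genes of cholesterol and fatty acid synthesis 11 lay higher and 1 lower, and Scd1, the stearoyl-CoA desaturase, had 3629, 2565 and 2318 CPM against 1598, 1725 and 1750 CPM. The shares over all genes were 14.0% higher and 10.4% lower. Below these lay oxidative phosphorylation with 3 of 25 higher, fatty acid oxidation with 1 of 17 in each direction, and heat shock and mitochondrially encoded genes with 1 of 13 higher in each list.

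Clock genes divided, with 4 of 18 higher and 8 lower. Nr1d1, the clock repressor REV-ERB alpha, had 87.8, 59.998 and 77.1 CPM against 244, 116 and 136 CPM, and Control was at 71.2 to 148 CPM. Dbp, another clock output, had 63.4, 43.5 and 57.4 CPM against 97.2, 72.3 and 85.4 CPM, while Arntl, which drives both, lay higher. The labels give no hour of sampling. Of 20 genes of endoplasmic reticulum stress 8 lay higher and 3 lower, with the chaperone gene Hspa5 at 685, 728 and 591 CPM against 468, 480 and 533 CPM. Of 23 p53 targets 5 lay higher and 3 lower, and Psrc1 had 44.8, 34.0 and 28.8 CPM against 14.0, 15.6 and 13.3 CPM. Of 28 cell cycle genes 4 lay higher and 0 lower, near the share of all genes. Mki67, the proliferation marker, had 8.43, 11.3 and 13.2 CPM against 9.34, 8.33 and 8.21 CPM, while the left-out libraries had 41.6 and 67.1 CPM and Control 4 had 29.4 CPM.

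Msln, the mesothelial marker of the lung surface, had 33.7, 41.9 and 90.2 CPM against 18.6, 7.73 and 16.6 CPM, and Control ranged from 8.78 to 44.5 CPM. Of 11 mesothelial genes 2 lay higher (18.2%, beside 14.0% of all genes).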
